A study of Drosophila mojavensis with 137 samples.

Results

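Virgin males of Drosophila mojavensis from 2 populations, both reared on organ pipe cactus, were compared on 26 of the 137 arrays of the series. The 13 Punta Prieta arrays and the 13 Las Bocas arrays were chosen by their titles, and each population had 4 arrays of flies that took 15 days to develop from egg to adult, 4 of 16 days, 3 of 17 days and 2 of 18 days. The Punta Prieta flies came from Baja California and the Las Bocas flies from Sonora, both labelled wild type. Whole flies were used, so a transcript can be lower because fewer cells make it or because each cell holds less of it, and these cannot be told apart. Each population is represented by 1 collection, so that population and collection cannot be told apart either. How old the adults were, and how many flies made up an array, the sources used here do not give. A further 2 Punta Prieta arrays of 14 days had no Las Bocas counterpart and are described apart.

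Drosophila mojavensis breeds in the rotting tissue of columnar cacti of the Sonoran Desert region, and its larvae feed on the yeasts and bacteria of the rot. Flies of Baja California use mainly agria, and those of mainland Sonora mainly organ pipe. Populations of this species are known to differ in life history, in tolerance of the compounds of their host cactus and in mating behaviour. The comparison asks which transcripts differ between males of the populations when both grew on organ pipe, with development time held as a block.

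Each array gave 1 log2 value for each of 14528 transcripts, named by FlyBase transcript IDs. The files do not pair these IDs with gene names, and 0 of them matched the reference table used here. What each transcript encodes is therefore not stated, and transcripts are described by their values, by their sex bias and by their behaviour in other flies of the series. Effects are Punta Prieta minus Las Bocas on the log2 scale, so that 1 unit is 2-fold and a positive value means higher in Punta Prieta. The test was limma with Benjamini-Hochberg adjustment over all 14528 transcripts, and a transcript passed at an adjusted p below 0.05.

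All 26 arrays had a male profile, but 2 Punta Prieta arrays stood apart from the other 24. A sex score was taken as the mean of 347 transcripts over 4-fold higher in females minus the mean of 1395 over 4-fold higher in males, both sets from agria-reared virgins that are not among the 26. It lay between -3.26 and -2.61 on the Punta Prieta arrays and between -3.24 and -2.88 on the Las Bocas arrays, against 2.49 to 3.73 on the 20 arrays of virgin females reared on organ pipe. The Punta Prieta arrays of 16 days, replicate 3, and of 17 days, replicate 1, had the highest sex scores of the 26, -2.61 and -2.64. They also had the lowest SDs of log2 values, 1.67 and 1.68, where the other Punta Prieta arrays lay between 1.79 and 1.89 and the Las Bocas arrays between 1.75 and 1.85. The first principal component of the 26 arrays, with 39.1% of their variance, placed these 2 arrays at 74.3 and 52.9 and the others between -44.7 and 27.1. Their part in the results was not tested beyond leaving them out, so counts are given with all 26 arrays and with 24.

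**Figure D1:**
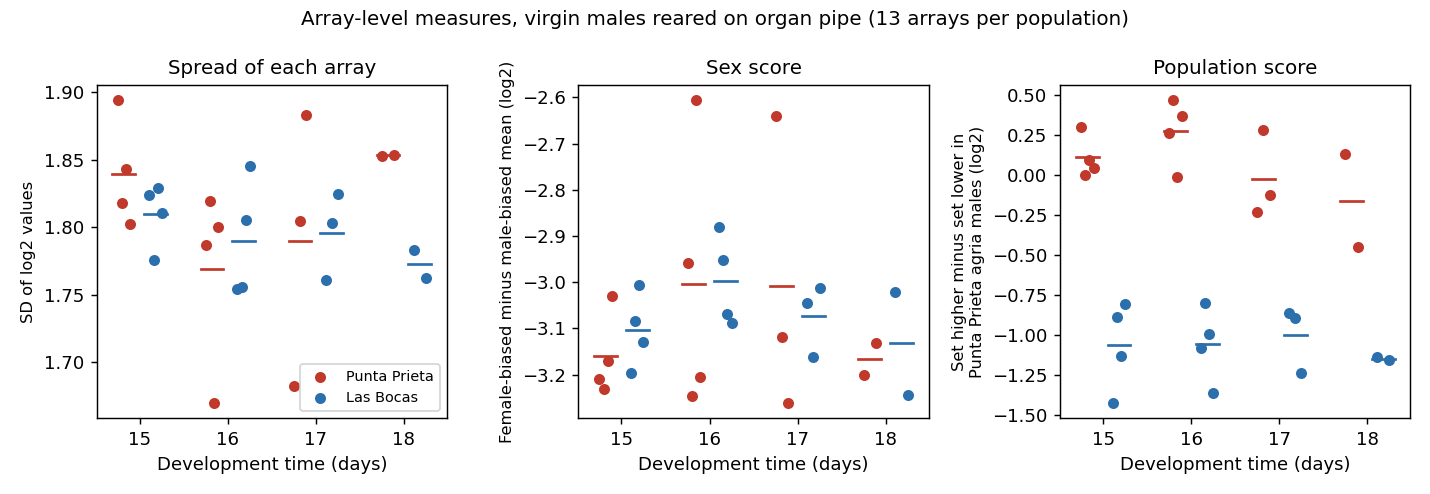
The SD of log2 values, the sex score and the population score (all log2) of each array are plotted against development time in days, with Punta Prieta arrays in red and Las Bocas arrays in blue. Points are arrays and short lines are group means. A pair of Punta Prieta arrays, of 16 and of 17 days, had SDs of 1.67 and 1.68 and sex scores of -2.61 and -2.64, while the population scores of the populations did not overlap.

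The population labels were borne out by transcripts chosen on other flies. A population score was formed from 147 transcripts higher and 169 lower in Punta Prieta by over 0.5 log2 among virgin males reared on agria. It ranged over -0.452 to 0.469 on the 13 Punta Prieta arrays, with a median of 0.097, and over -1.43 to -0.802 on the 13 Las Bocas arrays, with a median of -1.08. The populations did not overlap on any day. The 2 arrays that stood apart scored -0.0106 and -0.233, inside the range of the other Punta Prieta arrays.

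Population accounted for a small share of the variation among the arrays. Over all transcripts it held 8.27% of the sum of squares with 1 degree of freedom, against 12.3% for development time with 3, 11.8% for their product with 3 and 67.6% for the residual with 18. Per degree of freedom, population held 8.27% and the residual 3.75%. With 24 arrays the share of population was 15.4% and that of the residual 57.7%. The spread within a population, as the median over transcripts of the SD of residuals, was 0.265 for Punta Prieta and 0.201 for Las Bocas with 26 arrays, and 0.211 for Punta Prieta and 0.198 for Las Bocas with 24.

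Of the 14528 transcripts, 530 passed as different between the populations, 3.65% of those tested. Among them 233 were higher in Punta Prieta (1.6% of all) and 297 were lower (2.04%). Most differences were small. The median size among those that passed was 0.43 log2, a fold of 1.35, and the smallest was 0.17. Of the higher transcripts 104 differed by over 0.5 log2, 20 by over 1 and 3 by over 2, and of the lower ones 102, 16 and 1. Before adjustment 2062 transcripts had a p below 0.05, where 726 are expected with no effect. For 37 transcripts, 0.255% of all, the 13 Punta Prieta values and the 13 Las Bocas values did not overlap, with 25 of them higher and 12 lower in Punta Prieta. Without the 2 arrays that stood apart, 1193 transcripts passed (8.21%), 512 higher (3.52%) and 681 lower (4.69%), and 510 of the 530 were among them with the same sign. The share of transcripts that passed varied little with their signal, from 3.06% to 4.48% over 5 equal bins of transcripts ordered by mean signal in agria-reared males.

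**Figure D2:**
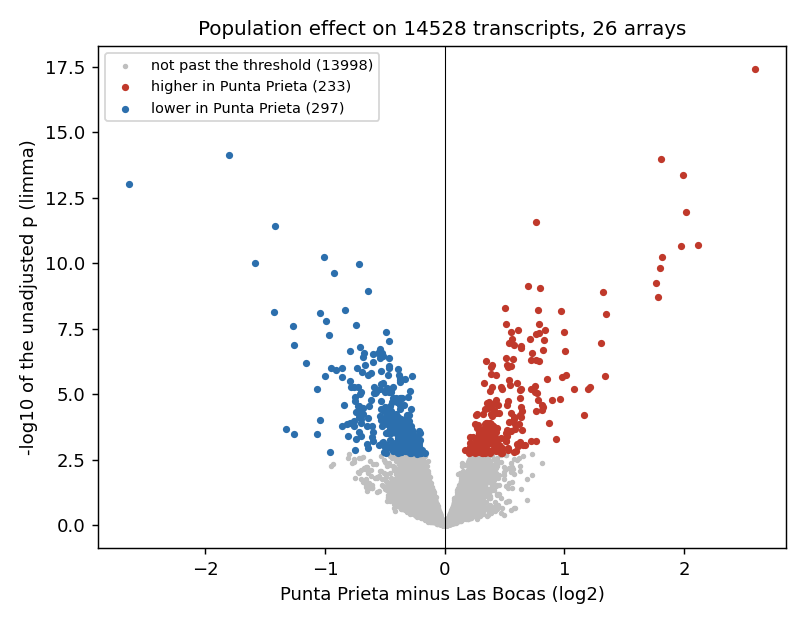
Each point is 1 of 14528 transcripts, with the Punta Prieta minus Las Bocas difference (log2) on the horizontal axis and the -log10 of the unadjusted p of limma on the vertical axis. The 233 transcripts in red passed as higher in Punta Prieta and the 297 in blue as lower, and most of both lie within 1 log2 of zero.

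The transcript with the largest rise was FBtr0175546. Its log2 values were 11.5 at the lowest, 12.1 at the median and 12.7 at the highest on the Punta Prieta arrays, against 9.07, 9.57 and 9.88 on the Las Bocas arrays. The lowest Punta Prieta array was thus above the highest Las Bocas array. The means were 12.1 ± 0.376 in Punta Prieta and 9.49 ± 0.288 in Las Bocas (SD, n = 13 each), a difference of 2.59 (SE 0.113, adjusted p = 5.58e-14, limma), or 6.04-fold. The difference was 2.52 (SE 0.213) at 15 days, 2.69 (SE 0.213) at 16 days, 2.69 (SE 0.246) at 17 days and 2.41 (SE 0.301) at 18 days. By the sex contrast of agria-reared virgins this transcript had little sex bias, at -0.10 for females minus males.

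FBtr0167831 had the second largest rise. Its log2 values were 11.8, 12.2 and 13.3 at the lowest, median and highest Punta Prieta array, against 9.25, 10.1 and 11.2 on the Las Bocas arrays, again with no overlap. The difference was 2.11 (SE 0.183, adjusted p = 3.21e-08, limma), or 4.33-fold. By day it was 2.07 (SE 0.338) at 15 days, 2.40 (SE 0.338) at 16 days, 2.14 (SE 0.39) at 17 days and 1.59 (SE 0.478) at 18 days, where it did not pass on that day alone (adjusted p = 0.194). The Las Bocas arrays of 16 days were the most spread, and held both the lowest and the highest Las Bocas value of this transcript.

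FBtr0167365 was lower in Punta Prieta by the largest amount. Its log2 values were 8.63, 9.15 and 9.98 at the lowest, median and highest Punta Prieta array, against 11.1, 12 and 12.7 on the Las Bocas arrays. The highest Punta Prieta array was below the lowest Las Bocas array. The difference was -2.64 (SE 0.178, adjusted p = 2.73e-10, limma), or 6.22-fold. It was -2.93 (SE 0.308) at 15 days, -2.72 (SE 0.308) at 16 days, -1.95 (SE 0.356) at 17 days and -2.92 (SE 0.436) at 18 days.

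FBtr0172679 was the second of the falls. Its log2 values were 10.6, 11.3 and 11.9 at the lowest, median and highest Punta Prieta array, against 12.9, 13.1 and 13.4 on the Las Bocas arrays. The Las Bocas arrays lay close together, with an SD of 0.139 against 0.414 in Punta Prieta, and no arrays overlapped. The difference was -1.80 (SE 0.109, adjusted p = 5.2e-11, limma), or 3.49-fold. It was -1.73 (SE 0.181) at 15 days, -2.19 (SE 0.181) at 16 days, -1.47 (SE 0.209) at 17 days and -1.69 (SE 0.256) at 18 days. Without the 2 arrays that stood apart the differences of these transcripts were 2.68 for FBtr0175546, 1.99 for FBtr0167831, -2.77 for FBtr0167365 and -1.83 for FBtr0172679.

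**Figure D3:**
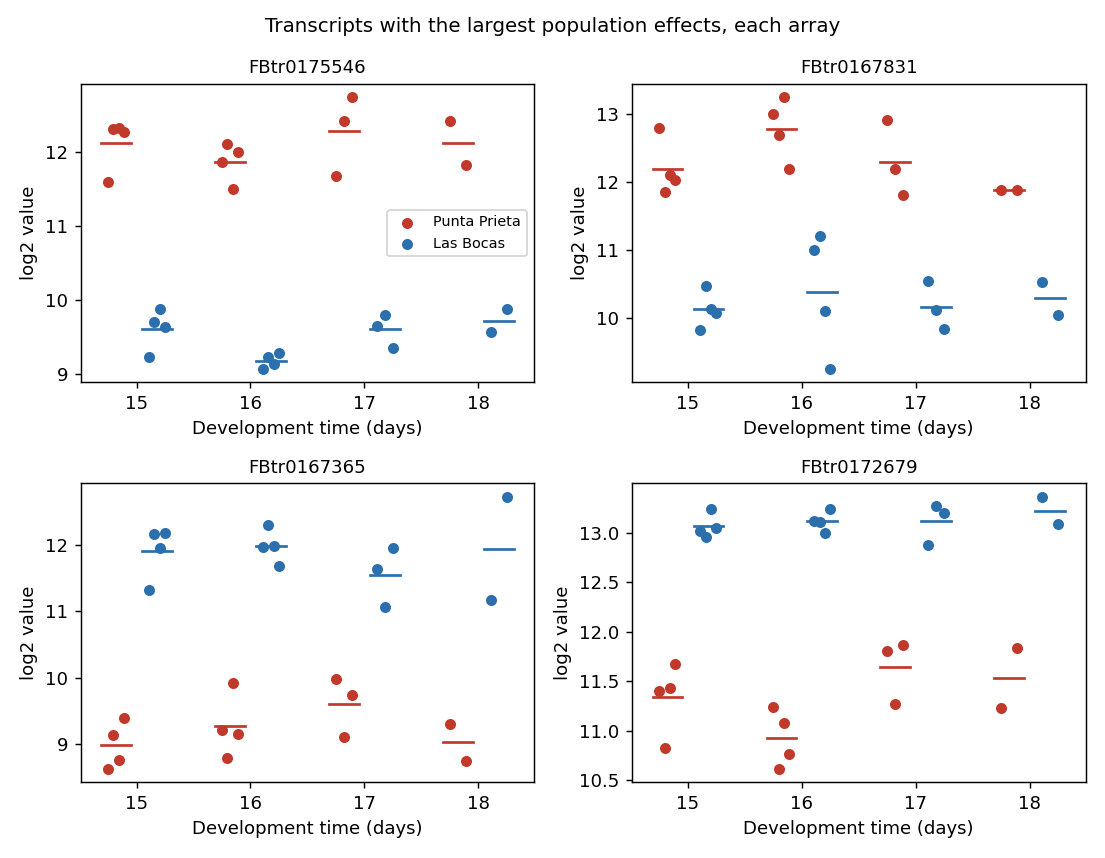
Log2 values of the transcripts with the 2 largest rises (upper panels) and the 2 largest falls (lower panels) on each array, by development time in days, with Punta Prieta in red and Las Bocas in blue. Points are arrays and short lines are group means. In every panel the 13 Punta Prieta arrays lie wholly on 1 side of the 13 Las Bocas arrays.

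The population effect was next followed over development time. On single days, with 2 to 4 arrays of each population, 32 transcripts passed at 15 days (0.22% of those tested), 78 at 16 days (0.537%), 44 at 17 days (0.303%) and 10 at 18 days (0.0688%). Of these, 15, 31, 28 and 4 were higher in Punta Prieta. Without the 2 arrays that stood apart the counts were 77, 131, 87 and 176, and those at 15 and 18 days changed although no array of these days was left out, since the days share 1 estimate of the spread. A change of the effect per day of development passed for 0 transcripts (0% of those tested) in limma, with 238 at an unadjusted p below 0.05 and a smallest adjusted p of 0.9999. Without the 2 arrays that stood apart it was also 0, with 412 at an unadjusted p below 0.05. Testing the 4 days as categories, by an F test in limma, likewise gave 0, with 671 at an unadjusted p below 0.05 and a smallest adjusted p of 0.872. With no effect, 726 transcripts are expected at an unadjusted p below 0.05. For 13101 of the 14528 transcripts the 95% interval of the change lay within 0.5 log2 per day. This limit is wide beside the median size of the effects that passed, 0.43 log2, so it does not show that the effects were steady. Changes with development time could still be missed. In simulated data, 68% of changes of 0.5 log2 per day were called, and 12% of those of 0.25. The simulated noise was independent between transcripts and between arrays, and no simulated array stood apart. The share that would be called on the real arrays is therefore not known.

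Faster and slower flies were also compared as sets that share no array. The arrays of 15 and 16 days called 310 transcripts (2.13%), and 296 of these had the same sign on the arrays of 17 and 18 days, 95.5% against 61.6% of all transcripts. The median size of the 310 was 0.55 log2 where they were called and 0.42 in that direction at 17 and 18 days. The arrays of 17 and 18 days called 25 (0.172%), of which 24 were called in the same direction at 15 and 16 days, so that the shared transcripts made up 96% of the shorter list and 7.74% of the longer one. None was called in opposite directions. Without the 2 arrays that stood apart, the lists held 506 (3.48%) and 50 (0.344%) transcripts, 44 of them called in both in the same direction.

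The 2 Punta Prieta arrays of 14 days entered no test. For FBtr0175546 they held 12.3 and 11.9, for FBtr0167831 11.9 and 12.8, for FBtr0167365 8.94 and 9.15, and for FBtr0172679 11.5 and 10.7. Each of these values lay within the range of the 13 later Punta Prieta arrays. Of the 530 transcripts that passed, 474 had a 14 day mean nearer to the Punta Prieta than to the Las Bocas mean, 89.4% against 56.6% of all transcripts. On a scale from 0 at the Las Bocas mean to 1 at the Punta Prieta mean, their median position was 0.98. It was 0.77 for all transcripts. With the 24 arrays it was 1006 of 1193, 84.3% against 59.5% of all.

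The same contrast was set beside that of virgin males reared on agria, with 12 Punta Prieta and 11 Las Bocas arrays of 14 to 16 days that the organ pipe comparison did not use. Agria males differed in 2281 transcripts (15.7%), 1183 higher and 1098 lower in Punta Prieta. Of the 530 organ pipe transcripts, 525 had the same sign in agria males, 99.1% against 66.8% of all transcripts. Of these, 404 passed there in the same direction and 0 in the opposite one, which is 76.2% of the organ pipe list and 17.7% of the agria list. Across the 14528 transcripts, which are not independent replicates, the effects on both cacti had a Pearson r of 0.646 and a Spearman rho of 0.519. The 1193 transcripts of the 24 arrays gave 1163 with the same sign and 590 that passed in both. FBtr0175546 differed by 2.37 (SE 0.134) in agria males, FBtr0167831 by 2.32 (SE 0.157), FBtr0167365 by -2.32 (SE 0.154) and FBtr0172679 by -2.05 (SE 0.128).

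Whether the population effect differed between the cacti was tested on the 32 virgin male arrays of 15 and 16 days, 8 for each population and cactus. In limma 0 transcripts passed (0% of those tested), with a smallest adjusted p of 0.249. At an unadjusted p below 0.05 there were 288, where 726 are expected with no effect. The median SE of this difference was 0.147 log2, larger than many of the effects themselves. The longer agria list is therefore not shown to be a stronger population effect on agria. On these matched days the lists held 310 transcripts on organ pipe and 1277 on agria.

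Males and females reared on organ pipe shared many of the population differences but not all. Virgin females, with 10 Punta Prieta and 8 Las Bocas arrays of 15 to 18 days, differed in 532 transcripts (3.66%), 315 higher and 217 lower in Punta Prieta. Of the 530 male transcripts, 410 had the same sign in females, 77.4% against 61.9% of all, with 132 passing in the same direction and 2 in the opposite one. The shared 132 were 24.9% of the male list and 24.8% of the female list. Across all transcripts the effects had a Pearson r of 0.457 and a Spearman rho of 0.339. With 24 male arrays, 945 of 1193 had the same sign and 176 passed in both.

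**Figure D4:**
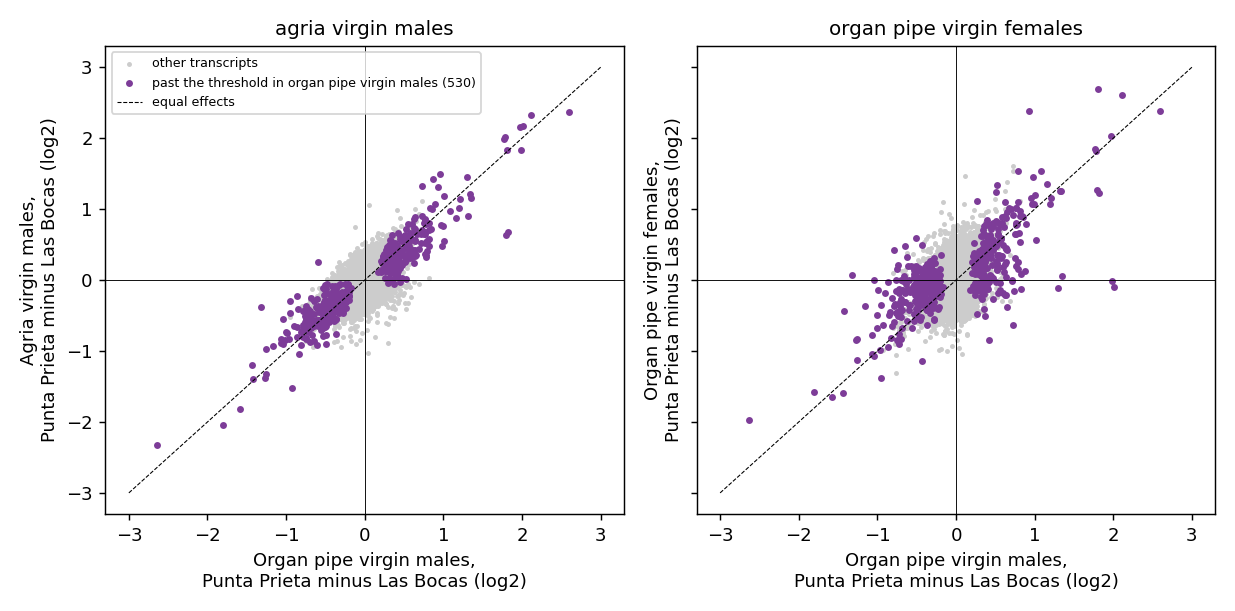
Population effects (Punta Prieta minus Las Bocas, log2) of each transcript in organ pipe virgin males on the horizontal axis, against those in agria virgin males (left) and organ pipe virgin females (right) on the vertical axis. The 530 transcripts that passed in organ pipe virgin males are in purple, and the dashed line marks equal effects. In agria males 525 of the 530 had the same sign, and in organ pipe females 410.

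The difference of the population effect between males and females, organ pipe virgins of 15 to 18 days, passed for 129 transcripts (0.888%). In 44 of them the effect was more positive in males, and in 85 more negative. With array weights 2213 passed and the balance turned, with 1390 more positive and 823 more negative in males. For 102 of the 129 the estimates had opposite signs in males and females. A further 10 had the same sign and a larger size in males, and 17 the same sign and a larger size in females. Choosing transcripts by a large difference favours opposite signs, and 61.9% of all transcripts had the same sign. Only 2 of all transcripts passed in both sexes in opposite directions, so most of the 102 are not shown to be reversed effects. Without the 2 male arrays that stood apart 183 passed, 87 more positive and 96 more negative in males. Without the Punta Prieta male array of 17 days, replicate 3, 218 passed.

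FBtr0172763 had the largest difference between males and females. Its log2 values were 12.5, 13.5 and 13.9 at the lowest, median and highest Punta Prieta male array, against 10.9, 11.3 and 12.3 in Las Bocas males, with no overlap. In organ pipe virgin females it was at 9.47, 10 and 10.4 on the 12 Punta Prieta arrays, and at 9.77, 10.1 and 10.4 on the 8 Las Bocas arrays, ranges that overlap. The population effect was 2.01 (SE 0.152) in males and -0.10 (SE 0.118, adjusted p = 0.611) in females, and the difference was 2.11 (SE 0.216, adjusted p = 8.85e-08, limma). Agria-reared flies, which were not in this test, gave effects for both sexes as well. The effect of FBtr0172763 was 2.17 (SE 0.201) in agria virgin males and 1.37 (SE 0.162) in agria mated males, against 0.02 (SE 0.0925, adjusted p = 0.988, limma) in agria virgin females and -0.34 (SE 0.187, adjusted p = 0.19) in agria mated females. It was male-biased in agria-reared virgins, at -1.67 for females minus males.

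FBtr0174529 was the transcript with the most negative difference, males minus females. It was higher in Punta Prieta in both sexes. The population effect was 0.93 (SE 0.232) for males and 2.38 (SE 0.234) for females. The difference, -1.45 (SE 0.355), had an adjusted p of 0.0343 in limma. It was female-biased by 4.75 in agria-reared virgins. In males its log2 values were 7.79, 9.12 and 10.4 at the lowest, median and highest Punta Prieta array, against 7.06, 8.18 and 8.67 in Las Bocas, so that the male arrays overlapped. These male values lie near the low end of the deposited values, the lowest of which was 5.83, and the files used here hold no background or detection call, so the size of its male effect is uncertain. In females the 12 Punta Prieta arrays of 14 to 18 days lay between 13.8 and 14.9, and the 8 Las Bocas arrays between 10.2 and 13. The call was lost without the Las Bocas male array of 15 days, replicate 3 (adjusted p = 0.0504), and with 15 and 16 day arrays only (a difference of -0.85, adjusted p = 0.423). In agria-reared flies the effects of FBtr0174529 were close in size in both sexes, 1.31 (SE 0.196) in virgin males and 1.497 (SE 0.228) in virgin females, and 1.21 (SE 0.263) in mated males and 1.35 (SE 0.198) in mated females. The difference between sexes was not tested on agria.

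Most of the largest effects had the same sign in other flies of the series. Of the 530 transcripts, 36 differed by over 1 log2, 20 higher and 16 lower in Punta Prieta, with a median size of 1.32. All 36 passed without the 2 arrays that stood apart, and 17 had no overlap between the populations, beside 37 of all 14528 (0.255%). The 36 were chosen on these same arrays, so neither count is independent support. In agria virgin males 36 of the 36 had the same sign and 35 passed. In 10 arrays of agria mated males, 36 had the same sign and 22 passed. The same sign was found for 31 in organ pipe virgin females, where 25 passed, for 33 in agria virgin females, where 23 passed, and for 33 in agria mated females, where 24 passed. The sign was the same in all 5 of these sets of flies for 30 of the 36 transcripts, and 14 passed in all 5. With agria mated females set aside, the sign was the same in the other 4 sets for 31, and 17 passed in all 4. These counts over sets are not given for all transcripts, and the shares in single sets that follow are not a baseline for them. In single sets, the share of all transcripts with the same sign was 66.8% in agria virgin males and 69.8% in agria mated males. It was 61.9% in organ pipe virgin females, 61.9% in agria virgin females and 55.2% in agria mated females. For 6 of the 36 the population effect differed between males and females, beside 129 of all 14528 (0.888%), a test that uses the same male arrays. The arrays of these sets are not shared with the organ pipe males. The shares of all transcripts that passed there were 15.7% in agria virgin males, 0.867% in agria mated males, 3.66% in organ pipe virgin females, 1.4% in agria virgin females and 10.7% in agria mated females. Among the agria mated females, 3 of the 6 Las Bocas arrays, of 14 days, replicate 1, and 15 days, replicates 1 and 2, stood apart. Their sex scores were 1.90 to 2.11 where the other 8 arrays of mated females lay between 2.61 and 3.40. Without these 3 arrays, a choice made after seeing the data, 0 transcripts passed there (0%) in limma, with 906 at an unadjusted p below 0.05, and 32 of the 36 had the same sign. Las Bocas then had 3 arrays, none of them of 15 days. With development time as a block, the difference thus rested on 14 and 16 days, with 1 Punta Prieta array on each. The loss of arrays cannot be told apart from what the arrays hold. Without the Punta Prieta array of agria virgin females of 14 days, replicate 1, which had the lowest sex score of its group at 2.24, 204 transcripts passed there (1.4%), and again 23 of the 36.

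FBtr0175546, FBtr0167831, FBtr0167365 and FBtr0172679 passed in each of these sets. Without the 3 arrays of agria mated females, where the difference rests on 14 and 16 days only, none of the 4 passed there. Their differences in that set were then 2.49 (SE 0.341), 2.20 (SE 0.31), -2.35 (SE 0.389) and -1.39 (SE 0.512), in that order, with adjusted p of 0.457, 0.457, 0.684 and 0.714 in limma. In organ pipe virgin females their differences were 2.38 (SE 0.147), 2.61 (SE 0.152), -1.97 (SE 0.124) and -1.57 (SE 0.143), in that order. The difference between males and females was not past the threshold for any of them, with adjusted p of 0.665, 0.407, 0.204 and 0.611 in limma.

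Transcripts were then grouped by their sex bias, measured in 45 arrays of agria-reared virgins of both populations, none of them among the 26. A class was called biased where females and males differed past the threshold by over 0.5 log2, and strongly biased where they differed by over 4-fold. In organ pipe virgin males, 9 transcripts were higher and 12 lower in Punta Prieta among 347 strongly female-biased ones, and 47 higher and 61 lower among 4776 female-biased up to 4-fold. The 6615 transcripts of little sex bias held 123 higher and 171 lower ones. Of 1395 male-biased up to 4-fold 40 were higher and 47 lower, and of 1395 strongly male-biased ones 14 were higher and 6 lower. The share that passed was thus 6.05%, 2.26%, 4.44%, 6.24% and 1.43% in these classes, beside 3.65% of all transcripts. With the strong classes set at 2-fold, the strongly female-biased share was 2.83% (63 of 2225), below that of all transcripts. The median effects lay between -0.03 and -0.01 log2 in every class, beside -0.02 for all transcripts. No strongly male-biased transcript passed with a difference over 1 log2.

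These shares moved with the 2 arrays that stood apart. Without them 11.5%, 7.43%, 9.25%, 9.68% and 3.66% of the classes passed, from strongly female-biased to strongly male-biased, beside 8.21% of all. The strongly male-biased class then had 42 higher and 9 lower and a median effect of 0.05 log2, where the median of all transcripts was 0.01. In agria virgin males the same class had 323 higher and 13 lower of 1395, 24.1% beside 15.7% of all, with a median effect of 0.10. The agria male arrays also entered the fit that set the classes. The mean of the strongly male-biased set was 12.6 on both arrays that stood apart, 12.9 to 13.2 on the other Punta Prieta arrays and 12.8 to 13.1 on the Las Bocas arrays. Their part in the low count of this class was not tested beyond leaving them out.

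**Figure D5:**
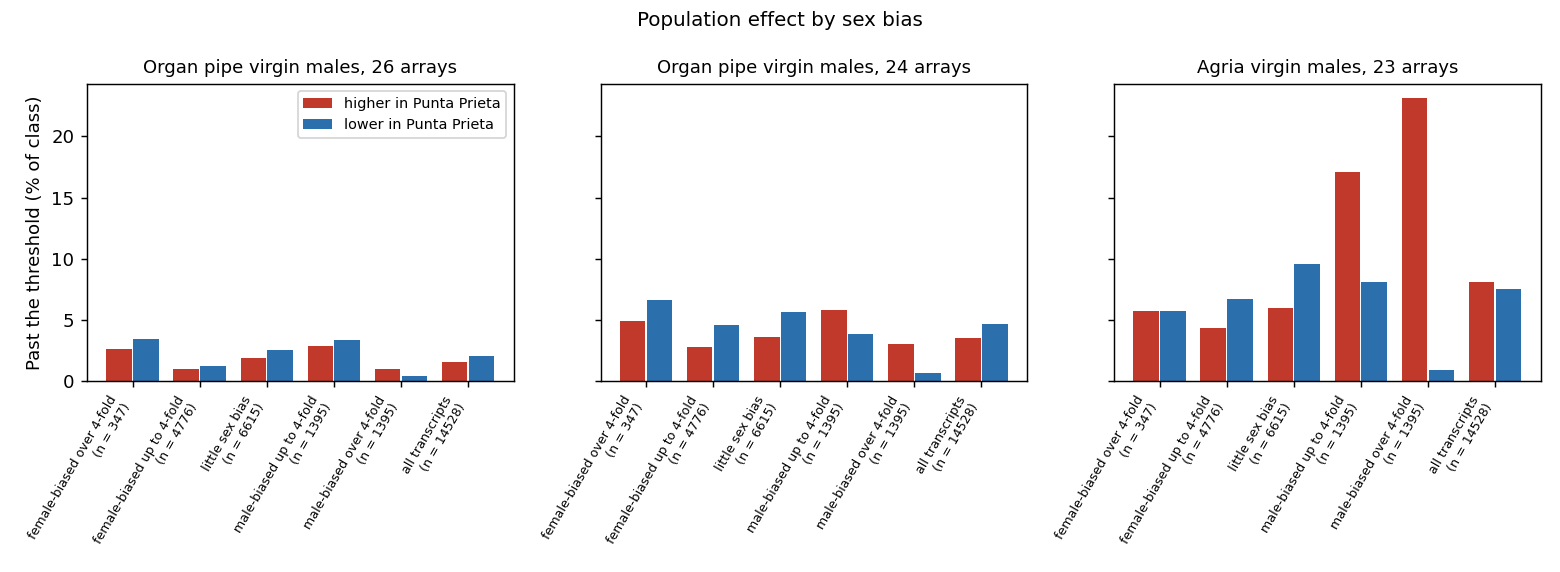
Bars give the share of each sex-bias class (% of its transcripts) that passed as higher (red) or lower (blue) in Punta Prieta, for organ pipe virgin males with 26 arrays, with 24 arrays, and for agria virgin males. Strongly male-biased transcripts passed as higher in 1% of cases with 26 arrays, 3.01% with 24 and 23.2% in agria males, and as lower in under 1.1% in each panel.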

How the data were processed

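The deposited log2 values, 1 for each of 14528 transcripts on each Cy3-labelled NimbleGen 135K array, were made by the authors with RMA, per the submitters' processing notes. The sources used here do not give its version or settings. RMA gives arrays a near-common distribution, so total RNA cannot be compared. Scanner signals, slides and probe sequences were not analysed here. No array equalled another (0 identical columns), and replicates correlated within groups at 0.878 to 0.995. Nothing says that replicates came from separate cultures, so p-values measure the spread between arrays, whose number limits the precision.

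Groups came from the titles. limma 3.58.1 in R 4.3.3 (lmFit, eBayes) was fitted to the 26 arrays with population and development time as a 4-level block. Differences between cacti, sexes and days were products with population in fits of the arrays named. The scripts were tested on simulated data. Transcripts were named by rule: the 2 largest effects in each direction among those past the threshold with the same sign on each day, and the largest difference in each direction between sexes. Lists of gene products and sex markers by gene name were not used, since the reference table of 15130 genes held 0 of the 14528 IDs. The members, rules and lists were chosen with earlier results of these data known. Alternatives covered scaling, a filter on dim transcripts, the variance model, array weights, array spread, the block, the arrays fitted and each array left out.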

Additional observations from a re-analysis of the deposited data

Results flagged for a closer look

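In each group of 4 arrays, the named transcripts and the array-level measures were searched for an array far from the other 3. Of 44 such sets 2 held one, where chance gives about 5%. FBtr0175546 was at 11.6 on the Punta Prieta array of 15 days, replicate 1, and close to 12.3 on the others of that group, still above every Las Bocas array. FBtr0174529 was at 10.4 on the Punta Prieta array of 16 days, replicate 3, one of the 2 arrays that stood apart, and between 9.12 and 9.25 on the others. Without those 2 arrays its effect in males was 0.74 (SE 0.211, adjusted p = 0.0317, limma).

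The population effect differed between males and females for 129 transcripts, by the test of the difference itself. The largest differences were 2.11 for FBtr0172763, whose population effect passed in males and not in females, and -1.45 for FBtr0174529, whose effect passed in both and was larger in females on organ pipe. On agria the effects of FBtr0174529 were 1.31 (SE 0.196) in virgin males and 1.497 (SE 0.228) in virgin females.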

How the results depend on the processing

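The 2 arrays that stood apart, the weighting of arrays and the number of arrays limit these results. The count of 530 transcripts was 1718 with array weights (874 higher, 844 lower), 1193 without the 2 arrays, 1153 without these and Punta Prieta 17 days, replicate 3, 1022 with array SD as a covariate (370 higher, 652 lower), 310 with 15 and 16 day arrays only, 25 with 17 and 18 day arrays only, 280 at an adjusted p below 0.01 and 36 with a difference over 1 log2 as well. Leaving out each array in turn gave 437 to 719. The alternatives of 17 and 18 days, of 3 arrays left out, of single days, of array weights for the classes, of the variance shares and of agria female arrays left out were chosen after seeing the data. With the replicate block, development time and replicate number together, the count was 431. The numbers were not taken as pairs, since same-numbered arrays of the populations deviated together at over 0.1 in only 7 of 13 pairs (r from -0.468 to 0.605). The same 7 correlated best with their own number, all 5 pairs of 17 and 18 days among them. The 2 pairs of 18 days are 1 value (r = 0.322), since with 2 arrays in a group their deviations mirror each other. FBtr0175546, FBtr0167831, FBtr0167365 and FBtr0172679 kept their direction and passed in 40 of 40 alternatives each, with a highest adjusted p of 0.0269 in limma.

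The change with development time stayed at 0 transcripts in 36 alternatives, leaving out each array (0 to 0) among them. The difference between cacti was 0 in 25 of 26, with 0 to 0 on leaving out each array, and 1 with all 137 arrays in one fit. The spread of that fit takes in arrays that went against their labelled sex, a Las Bocas organ pipe mated female array (sex score -2.72) among them. Some arrays also went against their labelled population. FBtr0175546 and FBtr0167365 were at 11.5 and 9.94 on the Las Bocas organ pipe mated female array of 16 days, replicate 1. They were at 9.38 and 12.5 on the Punta Prieta organ pipe mated male array of 16 days, replicate 2. The part of such arrays in the 1 call was not tested. The transcript called in that fit, FBtr0169615, was named after its value was seen (-1.31, SE 0.239, adjusted p = 0.00579, limma). The 129 transcripts that differed between males and females were 208 with quantile normalization, 2213 with array weights (1390 more positive, 823 more negative in males), 295 with array SD as a covariate and 22 with 15 and 16 day arrays only, and 92 to 218 on leaving out each male array. FBtr0174529 also lost the threshold with all 137 arrays in one fit (adjusted p = 0.129, range over its alternatives up to 0.423), and FBtr0172763 kept it in 35 of 35.

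Single-day counts of 32, 78, 44 and 10 became 77, 131, 87 and 176 without the 2 arrays and 345, 6253, 288 and 4 with array weights, which rest on 2 to 4 arrays a group. Class counts of 21, 108, 294, 87 and 20, from strongly female-biased to strongly male-biased, became 40, 355, 612, 135 and 51 without the 2 arrays and 48, 449, 849, 243 and 129 with array weights. With a limit of 2-fold, which changes the classes themselves, they were 63 of 2225 strongly female-biased (2.83%), 66 of 2898 female-biased (2.28%) and 49 of 2008 strongly male-biased transcripts (2.44%). The strongly female-biased share was thus above the 3.65% of all transcripts at 4-fold and below it at 2-fold. The share of variance held by population was 8.27% and became 15.4% without the 2 arrays. The cause of the other changes was not tested.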
